A study of Mus musculus with 14 samples.

Results

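The genes described here encode 9 components of the machinery that cuts the extracellular matrix, followed in colon epithelium with and without Smad4. They are 4 matrix metalloproteinases (Mmp2, Mmp7, Mmp14 and Mmp15), 2 tissue inhibitors of metalloproteinases (Timp2 and Timp3), the plasminogen activators Plat and Plau, and Plaur, the cell-surface receptor of Plau. They were chosen by symbol, and all 9 were found among the 37680 genes of the count table. Of these, 8 passed the filter on low counts and were tested, and Plau did not pass it.

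The epithelium came from adult WT mice and from Smad4 KO mice, which lose floxed Smad4 in intestinal epithelial cells through a Cre (villin promoter) that tamoxifen activates. Mice of each genotype drank water (4 libraries each) or 2.5% dextran sulfate sodium (DSS), which injures the colonic mucosa, for 3 d (3 libraries each). The study's figure legends give 3 replicates for the water-treated KO and do not say which of the 4 libraries these were. The crypts were freed from the mesenchyme with EDTA, and mRNA was sequenced. In the drawn regimen only the Smad4 KO mice received tamoxifen, so that genotype and tamoxifen cannot be told apart. The study's methods name the Cre transgene for the mutants and the controls alike.

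Matrix metalloproteinases are zinc enzymes made as inactive precursors, and together they cleave most proteins of the matrix as well as growth factors and receptors at the cell surface. Mmp14 and Mmp15 are anchored in the membrane, Mmp2 is a secreted gelatinase that Mmp14 activates with the help of Timp2, and Mmp7 (matrilysin) is a small secreted enzyme typical of epithelial cells, made by Paneth cells of the small intestine and induced in injured epithelium. The tissue inhibitors bind the active site of these enzymes, and Timp3 stays bound to the matrix. Plat and Plau convert plasminogen into plasmin, which degrades fibrin and activates metalloproteinase precursors, and Plaur holds Plau at the cell surface. The question addressed was how far these genes differed between Smad4 KO and WT epithelium, before and after an early injury.

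Total counts ranged from 12882827 to 26087231 per library, and 1 count was worth 0.037 to 0.107 CPM (counts-per-million, scaled by the TMM method of edgeR). Smad4 was at 118 to 182 CPM in the 7 WT libraries and at 35.1 to 46.8 CPM in 6 of the 7 KO libraries. The library labelled KO water replicate 1 had 158 CPM of Smad4, within the WT range, which goes against its label. It was kept under its label, and values that use the water-treated KO include it unless stated. Fits between genotypes on water without it are given for Smad4, Mmp7, Timp3 and Plat only. After DSS the log2 fold change of Smad4 in KO against WT was -2.05 (SE 0.09, edgeR adjusted p = 1.5e-05). Summed epithelial markers (9 genes) stood at 12238 to 19285 CPM. The sum of 10 endothelial markers was 4.17 to 11.3 CPM, with Pecam1 at 4 to 18 counts in every library and Cldn5 and Tie1 at 0 in all of them. The sum of 14 fibroblast markers was also far below the epithelial one, and it did not overlap between the genotypes after DSS. It ran from 19.2 to 24.1 CPM in WT on water, 22.4 to 63.8 CPM in KO on water, 17.2 to 24.3 CPM in WT after DSS and 31.1 to 36.7 CPM in KO after DSS. The 14 genes were uneven. Lum had at most 1 count and Pdgfra at most 10 in any library, while Col3a1 reached 98 and Dcn 216, both in KO water replicate 4. In WT DSS replicate 1, Col3a1 stood at 0.0919 CPM and Dcn at 0 of a sum of 18.2 CPM, so that other genes of the list made up nearly all of that sum. After DSS, 4 of the 11 tested fibroblast markers were called higher in KO by edgeR (Col1a1, Col1a2, Col3a1 and Sparc), where 0.747% of all tested genes were called, and the median log2 fold change of the 11 was 2.40. Other marker sums also did not overlap between the genotypes after DSS, and all of these were lower in KO. Of all tested genes taken singly, 10.4% were higher and 11.4% lower in KO without overlap in this comparison. The goblet cell sum (8 genes) was 12771 CPM in the middle KO library and 16880 CPM in the middle WT library, the colonocyte sum (7 genes) ran from 4677 to 5141 CPM in KO and 5274 to 6206 CPM in WT, and the epithelial sum from 15894 to 16834 CPM in KO and 17322 to 18044 CPM in WT. The smooth muscle sum (8 genes) ran from 40.6 to 49.9 CPM in KO and 51.0 to 65.6 CPM in WT. Among these lists the goblet cell genes Fcgbp and Zg16, the colonocyte genes Car4, Aqp8 and Ceacam20 and the epithelial keratin Krt20 were called lower in KO after DSS. The neutrophil genes S100a8 and S100a9 were called higher (log2 fold changes 3.22 and 3.08, edgeR adjusted p = 0.0103 and 0.0434), while the myeloid sum overlapped. Over all libraries that sum (11 genes) ran from 99.6 to 224 CPM. The mast cell sum (7 genes) ran from 43.3 to 78.8 CPM and the lymphoid sum (11 genes) from 11.2 to 59.8 CPM. The part of these cell markers in the values of the members was not tested. In such bulk libraries, fewer cells of a type and less RNA per cell cannot be told apart.

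By mean level per kilobase of exon, the membrane-type enzymes stood highest and the urokinase gene Plau lowest, with overlap between most neighbours. Mmp14 had 29.7 ± 20.9 CPM per kilobase and Mmp15 26.3 ± 4.48 (SD, n = 14 libraries each). These neighbours did not differ beyond their spread, since Mmp14 was the higher of them in only 5 of the 14 libraries. Mmp7 followed with 11.3 ± 7.96 CPM per kilobase and was below Mmp15 in 13 of 14 libraries. Plaur had 3.96 ± 1.63 and Timp2 1.80 ± 0.772 CPM per kilobase, and Plaur was the higher in 13 of 14 libraries. The low end held Plat with 0.752 ± 0.494, Mmp2 with 0.229 ± 0.157, Timp3 with 0.111 ± 0.0829 and Plau with 0.0348 ± 0.0556 CPM per kilobase. Each of Timp2, Plat, Mmp2 and Timp3 exceeded the next gene in 11 or 12 of the 14 libraries, so that their ranges overlapped. Together, Mmp14 and Mmp15 made up 60.9% to 90.1% of the summed level of the 9 genes in a library, with a median of 75.5%, and Mmp7 made up 3.54% to 30.6%.

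**Figure D1:**
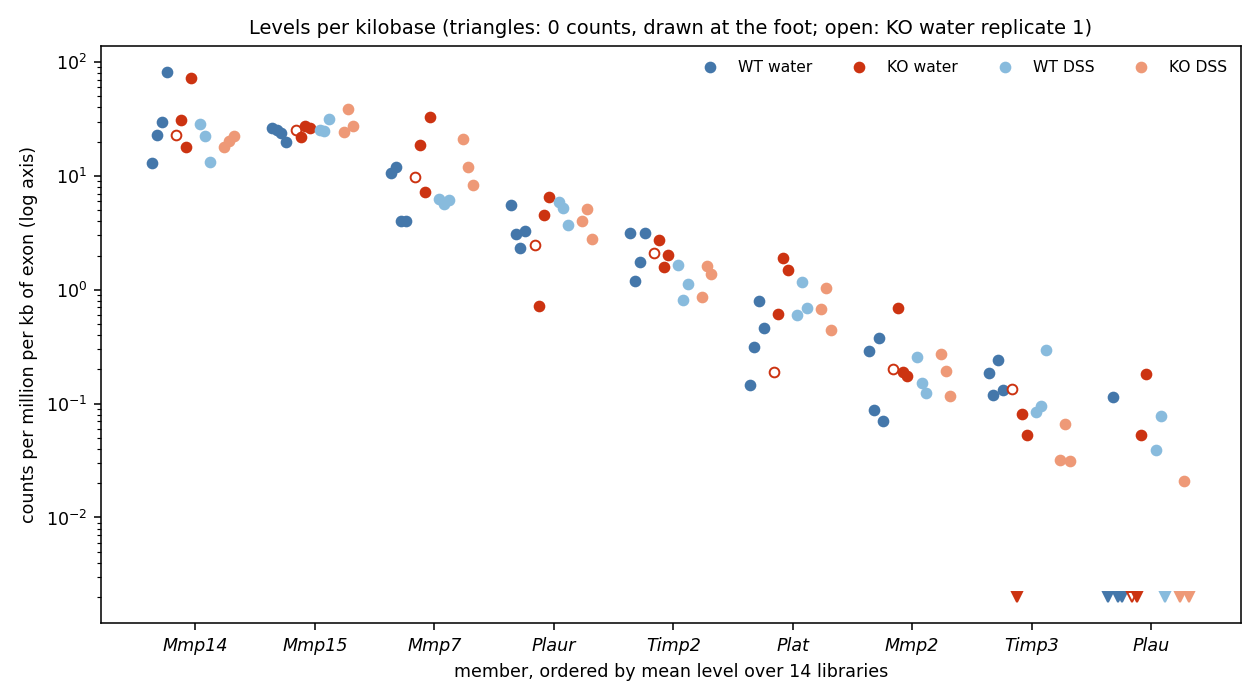
Level of each of the 9 genes in each of the 14 libraries, in CPM per kilobase of exon on a log axis, with genes ordered by their mean and points coloured by group. Mmp14 and Mmp15 lead with means of 29.7 and 26.3, Mmp15 varies least, and Timp3 and Plau include libraries at 0 (triangles).

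KO and WT libraries did not overlap after DSS for 1 member in each direction, Mmp7 (higher in KO) and Timp3 (lower in KO). Of all tested genes, 10.4% were higher and 11.4% lower without overlap, so that a count of 1 in each direction among 9 members is near the background and is no result about the members. No factor binding was measured here, and the 250 bases before the first listed transcription start of each are shown only to set these genes side by side as sequence. The RefSeq promoter table (GRCm38.p6) matched 6 of the 9 members, with 7 starts. Capitals mark matches, on either strand, to short motifs of known factors. They are TGANTCA, the motif bound by AP-1, and TATAAA, the core of the TATA box. The motif CTTTGA stands for the TCF factors and the motif AGGAAG for factors of the ETS family. The last motif searched was CAGAC, the short element that SMAD proteins bind. No matches overlap. The Mmp7 stretch lies on the plus strand at chr9:7691840-7692089 and the Timp3 stretch on the plus strand at chr10:86300162-86300411.
Mmp7: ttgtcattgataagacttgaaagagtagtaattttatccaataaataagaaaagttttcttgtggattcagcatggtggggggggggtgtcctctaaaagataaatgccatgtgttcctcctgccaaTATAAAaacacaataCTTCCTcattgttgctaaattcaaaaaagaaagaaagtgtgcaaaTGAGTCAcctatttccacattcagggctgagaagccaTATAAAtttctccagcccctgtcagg
Timp3: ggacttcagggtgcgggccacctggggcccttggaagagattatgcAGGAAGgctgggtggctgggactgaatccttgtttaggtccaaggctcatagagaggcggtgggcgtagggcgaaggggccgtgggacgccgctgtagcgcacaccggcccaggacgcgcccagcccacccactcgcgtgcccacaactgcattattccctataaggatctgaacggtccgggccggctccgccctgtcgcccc
The Mmp7 stretch held the AP-1 letters from 63 to 57 bases before the start, TATAAA from 26 to 21 and from 123 to 118 bases before it, and the ETS letters on the reverse strand from 108 to 103 bases before it. The Timp3 stretch held 1 match, the ETS letters from 204 to 199 bases before the start. Of 32851 listed mouse starts, 6.75% held the AP-1 letters in the same window, 12.4% TATAAA, 13.8% the TCF letters, 29.5% the ETS letters and 42.2% the SMAD letters. Mmp7 has a further listed start, not printed here, whose window held the TCF letters from 246 to 241, the SMAD letters from 178 to 174 (both on the reverse strand) and the ETS letters from 142 to 137 bases before it. Among the other matched members, Plaur held the AP-1 letters from 69 to 63 and the ETS letters from 130 to 125 bases before its start, and Mmp14 the ETS letters from 209 to 204 bases before its start. These matches are a description of letters and not of bound sites.

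Mmp7 (ENSMUSG00000018623, chr9:7692086-7699585 of mm9, plus strand, 6 exons) had 8.24 ± 4.60 CPM in WT on water (SD, n = 4). Its WT libraries on water held 11.4, 12.9, 4.32 and 4.28 CPM, and the KO libraries on water held 10.5, 19.9, 7.73 and 35.0 CPM, with a mean of 18.3 ± 12.3 (SD, n = 4). The water groups overlapped, although KO replicates 2 and 4 lay above every WT library on water, replicate 4 by far. After DSS the WT libraries held 6.76, 6.12 and 6.57 CPM and the KO libraries 22.8, 12.9 and 8.93 CPM. Every KO library was thus above every WT library after DSS, and the WT libraries lay close together (6.48 ± 0.326, n = 3) while the KO libraries were spread out (14.9 ± 7.12, n = 3). Such a separation with KO higher was found in 10.4% of all tested genes.

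The fitted Mmp7 level after DSS was 2.30-fold that of WT (95% confidence interval 1.45 to 3.64), a log2 fold change of 1.20 (SE 0.30, edgeR adjusted p = 0.113). This did not pass the threshold of 0.05. DESeq2 gave the same log2 fold change with an adjusted p of 0.00159, and edgeR without the low-count filter gave an adjusted p of 0.0131, so that Mmp7 was called by these settings and by none of the other 15 alternatives. DESeq2 called 3.5% of the genes it gave an adjusted p, and edgeR without the filter 1.53%. Leaving out KO DSS replicate 1, the highest library, lowered the log2 fold change to 0.76 (adjusted p = 0.212, edgeR). On water the log2 fold change of Mmp7 was 1.12 (SE 0.49, 95% confidence interval 0.06 to 2.19, edgeR adjusted p = 0.225), and it was 1.32 without KO water replicate 1 (edgeR adjusted p = 0.228) and 0.60 without KO water replicate 4 (edgeR adjusted p = 0.384).

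Markers of Paneth cells, which make Mmp7 in the small intestine, were followed beside it. WT water replicate 1, the WT library next to the highest in Mmp7, was the only one with more than 1 count of any of 5 Paneth cell defensins, at 257 counts of Defa24, 185 of Defa20 and 141 of Defa21. The other 13 libraries had 0 counts of Defa20 and Defa21 and at most 1 of Defa24. The sum of 9 Paneth markers includes Itln1, Pla2g2a and Ang4 of other secretory cells. It ran from 219 to 3222 CPM in WT on water and 72.4 to 1750 CPM in KO on water. After DSS it ran from 169 to 2494 CPM in WT and 114 to 2364 CPM in KO. WT water replicate 1, the library with the defensins, had the lowest sum of its group, 219 CPM, although its Lyz1 was the highest of all libraries (173 counts). The WT libraries with the lowest Mmp7 on water, replicates 3 and 4, had 30.6% and 32.8% of their counts on mitochondrial genes, against 4.05% to 8.23% in the others except KO water replicate 4, which had 21.4%. The part of this share in the Mmp7 level was not tested, nor was that of the marker sums that separated after DSS, higher for fibroblasts and lower for goblet cells, colonocytes, epithelium and smooth muscle in KO. A transcript on the opposite strand that shares exon sequence with Mmp7, AV064505, had no count in any library.

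Timp3 (ENSMUSG00000020044, chr10:85763117-85812251 of mm9, plus strand) ran the other way, at a level far below that of the membrane enzymes. On water the WT libraries held 1.52, 0.98, 1.95 and 1.07 CPM, and the KO libraries held 1.10, 0, 0.66 and 0.43 CPM. The highest of the KO values belonged to replicate 1, the library with Smad4 at the WT level, and the other 3 KO libraries lay below all WT libraries, as for 7.66% of all tested genes. After DSS the WT libraries held 0.69, 0.78 and 2.40 CPM and the KO libraries 0.26, 0.54 and 0.25 CPM, without overlap. KO libraries were lower without overlap after DSS in 11.4% of all tested genes. Over both treatments and without KO water replicate 1, the highest of the 6 KO libraries (0.66 CPM) was below the lowest of the 7 WT libraries (0.69 CPM), as for 0.866% of all tested genes. These were KO water replicate 3 with 16 counts and WT DSS replicate 1 with 15 counts. The gap between them was less than 1 count, which was worth 0.041 and 0.046 CPM in these libraries.

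The raw counts behind these Timp3 values were small, 10 to 57 in the WT libraries, 0 to 16 in the KO libraries other than replicate 1 on water, and 25 in that library. Pooled over a group, Timp3 stood at 1.32 CPM in WT (95% exact Poisson interval 1.06 to 1.63) and 0.355 CPM in KO after DSS (0.22 to 0.543). On water it stood at 1.36 CPM in WT (1.10 to 1.66) and 0.594 CPM in KO (0.439 to 0.785). These intervals cover counting error only. Fitted across genes, the log2 fold change after DSS was -1.87 (SE 0.61, 95% confidence interval -3.23 to -0.51, edgeR adjusted p = 0.205), and DESeq2 gave an adjusted p of 0.112. Leaving out WT DSS replicate 3, the highest library, brought the log2 fold change to -1.05 (edgeR adjusted p = 0.469). On water the log2 fold change was -1.31 (SE 0.83, 95% confidence interval -3.11 to 0.49, edgeR adjusted p = 0.386), and -1.89 without KO water replicate 1 (edgeR adjusted p = 0.316). Timp3 was called in none of the 16 alternatives after DSS.

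Syn3 lies on the opposite strand across Timp3 with overlapping exons, and the strand setting of the counting is not given in the sources used here, so reads of the pair may not be fully separated. Syn3 had 1.41 ± 0.601 CPM in WT and 1.39 ± 0.41 CPM in KO after DSS (SD, n = 3 each). It had 1.03 ± 0.355 CPM in WT and 1.34 ± 0.197 CPM in KO on water (SD, n = 4 each). After DSS the goblet cell, colonocyte, epithelial and smooth muscle sums were lower in KO, as Timp3 was, and the fibroblast sum was higher, and their part in the Timp3 level was not tested.

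**Figure D2:**
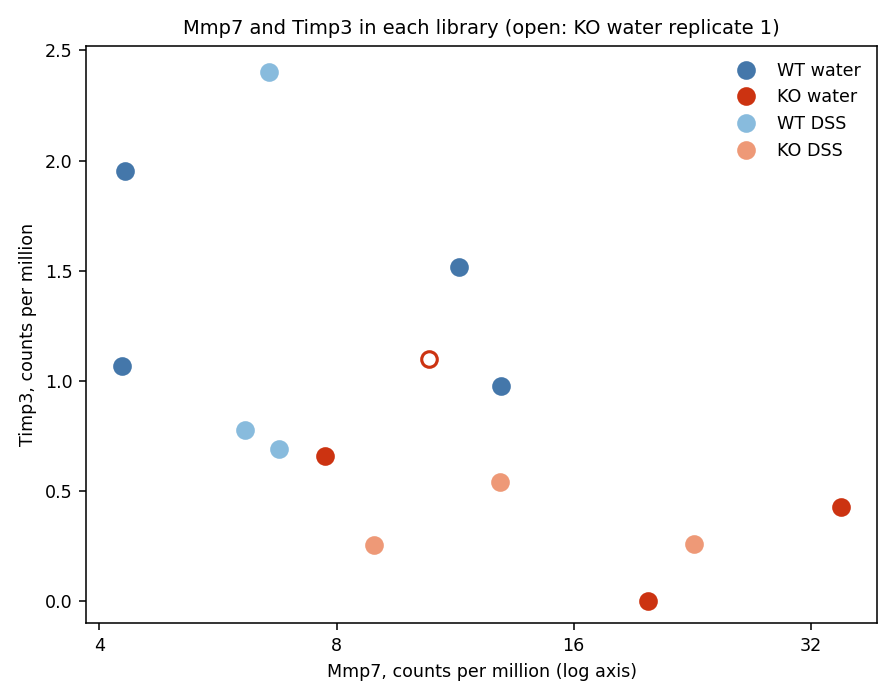
Timp3 against Mmp7 in the 14 libraries, in CPM (Mmp7 on a log axis), coloured by group. KO libraries other than replicate 1 on water (open point) lie at or below 0.66 of Timp3, and WT libraries lie at or above 0.69. In Mmp7 the genotypes overlap, with these KO libraries at or above 7.73 and WT libraries from 4.28 to 12.9. The gap from 0.66 to 0.69 is less than 1 count.

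Mmp14 (ENSMUSG00000000957, chr14:55050441-55060095 of mm9, plus strand), the membrane-type enzyme that activates Mmp2, varied more between libraries of a group than between groups. On water the WT libraries held 33.5, 59.2, 76.6 and 212 CPM and the KO libraries 60.0, 80.1, 46.9 and 189 CPM. The highest library of each genotype, replicate 4, carries the name prefix MP, which no other library has. These libraries had 32.8% and 21.4% of their counts on mitochondrial genes. WT water replicate 3 had a share of 30.6% and an Mmp14 level of 76.6 CPM. The part of the mitochondrial share and of the prefix in the Mmp14 level was not tested. After DSS the range was 34.3 to 73.6 CPM in WT and 47.0 to 58.1 CPM in KO. The log2 fold change of KO against WT was -0.07 after DSS (95% confidence interval -0.58 to 0.44, edgeR adjusted p = 0.916) and -0.01 on water (-1.17 to 1.14, edgeR adjusted p = 0.992).

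The effect of the MP libraries on the DSS comparison of Mmp14 was large. DSS against water gave a log2 fold change of -0.78 in WT (SE 0.53, edgeR adjusted p = 0.391) and -0.84 in KO (SE 0.42, edgeR adjusted p = 0.76). Without WT water replicate 4 the value in WT was -0.03 (SE 0.32, edgeR adjusted p = 0.975), and without KO water replicate 4 the value in KO was -0.24 (SE 0.19, edgeR adjusted p = 0.644).

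**Figure D3:**
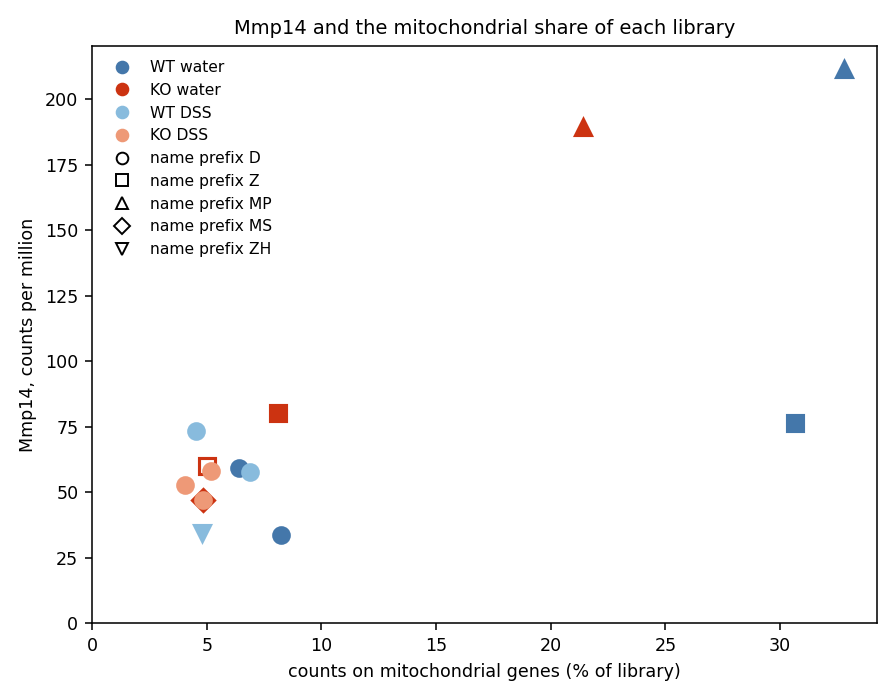
Mmp14 in CPM against the percentage of each library's counts on mitochondrial genes, for 14 libraries, with colour for the group, shape for the name prefix and KO water replicate 1 open. The libraries with prefix MP stand at 212 and 189 CPM, and all others lie at or below 80.1.

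Mmp15 (ENSMUSG00000031790, chr8:97876168-97898193 of mm9, plus strand), the other membrane-type enzyme, was the steadiest member, with 1.94-fold between its lowest and its highest library. It had 104 ± 12.3 CPM in WT and 109 ± 10.1 CPM in KO on water (SD, n = 4 each), and 118 ± 16.7 CPM in WT and 131 ± 33.2 CPM in KO after DSS (SD, n = 3 each). The highest value, 168 CPM, was in KO DSS replicate 2, and all groups overlapped. The log2 fold change of KO against WT was 0.16 after DSS (95% confidence interval -0.23 to 0.54, edgeR adjusted p = 0.699) and 0.07 on water (-0.25 to 0.39, edgeR adjusted p = 0.814), the narrowest intervals of any member.

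Mmp2 (ENSMUSG00000031740, chr8:95351227-95377316 of mm9, plus strand), a gelatinase made mainly by stromal cells, was barely detected, with 2 to 35 counts in a library. It had 0.627 ± 0.459 CPM in WT and 0.953 ± 0.756 CPM in KO on water (SD, n = 4 each), and 0.539 ± 0.213 CPM in WT and 0.594 ± 0.241 CPM in KO after DSS (SD, n = 3 each). KO water replicate 2 held 2.09 CPM against 0.53 to 0.62 CPM in the other KO libraries on water. That library had the lowest fibroblast marker sum of its group, 22.4 CPM. The log2 fold change of KO against WT was 0.15 after DSS (95% confidence interval -0.97 to 1.26, edgeR adjusted p = 0.916) and 0.58 on water (-1.09 to 2.25, edgeR adjusted p = 0.701).

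Timp2 (ENSMUSG00000017466, chr11:118162383-118217054 of mm9, minus strand), the inhibitor that also takes part in Mmp2 activation, was the member with the lowest p-values for DSS against water in both genotypes. On water the WT libraries held 12.4, 4.66, 6.84 and 12.4 CPM and the KO libraries 8.23, 10.6, 6.21 and 7.81 CPM. After DSS the WT libraries held 6.44, 3.15 and 4.34 CPM and the KO libraries 3.40, 6.30 and 5.33 CPM. The means after DSS were lower, but in each genotype the highest DSS library lay above the lowest water library. DSS against water gave Timp2 a log2 fold change of -0.96 in WT (SE 0.39, 95% confidence interval -1.82 to -0.10, unadjusted p = 0.0323 and adjusted p = 0.172 by edgeR). It was -0.71 in KO (SE 0.29, 95% confidence interval -1.35 to -0.07, unadjusted p = 0.034 and adjusted p = 0.756 by edgeR). Neither passed the threshold, although the value stayed below 0 in all alternatives run, between -1.27 and -0.73 in WT and between -0.90 and -0.50 in KO. Between genotypes the log2 fold change of Timp2 was 0.12 after DSS (95% confidence interval -0.58 to 0.81, edgeR adjusted p = 0.891) and -0.14 on water (-0.86 to 0.58, edgeR adjusted p = 0.838).

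Plat (ENSMUSG00000031538, chr8:23868216-23893319 of mm9, plus strand), which encodes tissue-type plasminogen activator, was the main plasminogen activator transcript of these libraries but was low in all of them. On water the WT libraries held 0.37, 0.80, 2.04 and 1.18 CPM and the KO libraries 0.48, 1.55, 4.77 and 3.74 CPM. KO replicates 3 and 4 lay above all WT libraries, and replicate 1 lay near the lowest of them. After DSS the range was 1.52 to 2.97 CPM in WT and 1.12 to 2.61 CPM in KO. On water the log2 fold change of KO against WT was 1.31 (SE 0.72, 95% confidence interval -0.27 to 2.88, edgeR adjusted p = 0.325), and 1.66 without KO water replicate 1 (edgeR adjusted p = 0.228). After DSS it was -0.19 (95% confidence interval -1.06 to 0.67, edgeR adjusted p = 0.849). For DSS against water, Plat had a log2 fold change of 0.99 in WT (SE 0.56, edgeR adjusted p = 0.31) and -0.53 in KO (SE 0.67, edgeR adjusted p = 0.917), and these responses differed by -1.52 (SE 0.94, 95% confidence interval -3.51 to 0.46, edgeR adjusted p = 0.688).

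Plau (ENSMUSG00000021822, chr14:21655884-21662610 of mm9, plus strand), the urokinase gene, had 0 to 8 counts in a library and was at 0 in 8 of the 14. Its counts were 6 in WT replicate 2 and 0 in the other WT libraries on water, and 3 and 8 in KO replicates 3 and 4 and 0 in the other KO libraries on water. After DSS it had 2, 4 and 0 counts in WT and 0, 1 and 0 counts in KO. Pooled over a group its level was 0.0169 CPM in KO after DSS (95% exact Poisson interval 0.000428 to 0.0942) and 0.089 CPM in WT after DSS (0.0327 to 0.194). These intervals overlap, and no difference was detectable at this depth.

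Plaur (ENSMUSG00000046223, chr7:25247519-25260892 of mm9, plus strand), the urokinase receptor, was far above its ligand. It had 4.96 ± 1.91 CPM in WT and 5.00 ± 3.55 CPM in KO on water (SD, n = 4 each), and 6.91 ± 1.58 CPM in WT and 5.58 ± 1.64 CPM in KO after DSS (SD, n = 3 each). The widest range was in KO on water, from 1.01 CPM in replicate 2 to 9.20 CPM in replicate 4. The log2 fold change of KO against WT was -0.30 after DSS (95% confidence interval -0.89 to 0.29, edgeR adjusted p = 0.619) and 0.00473 on water (-1.15 to 1.16, edgeR adjusted p = 0.997).

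**Figure D4:**
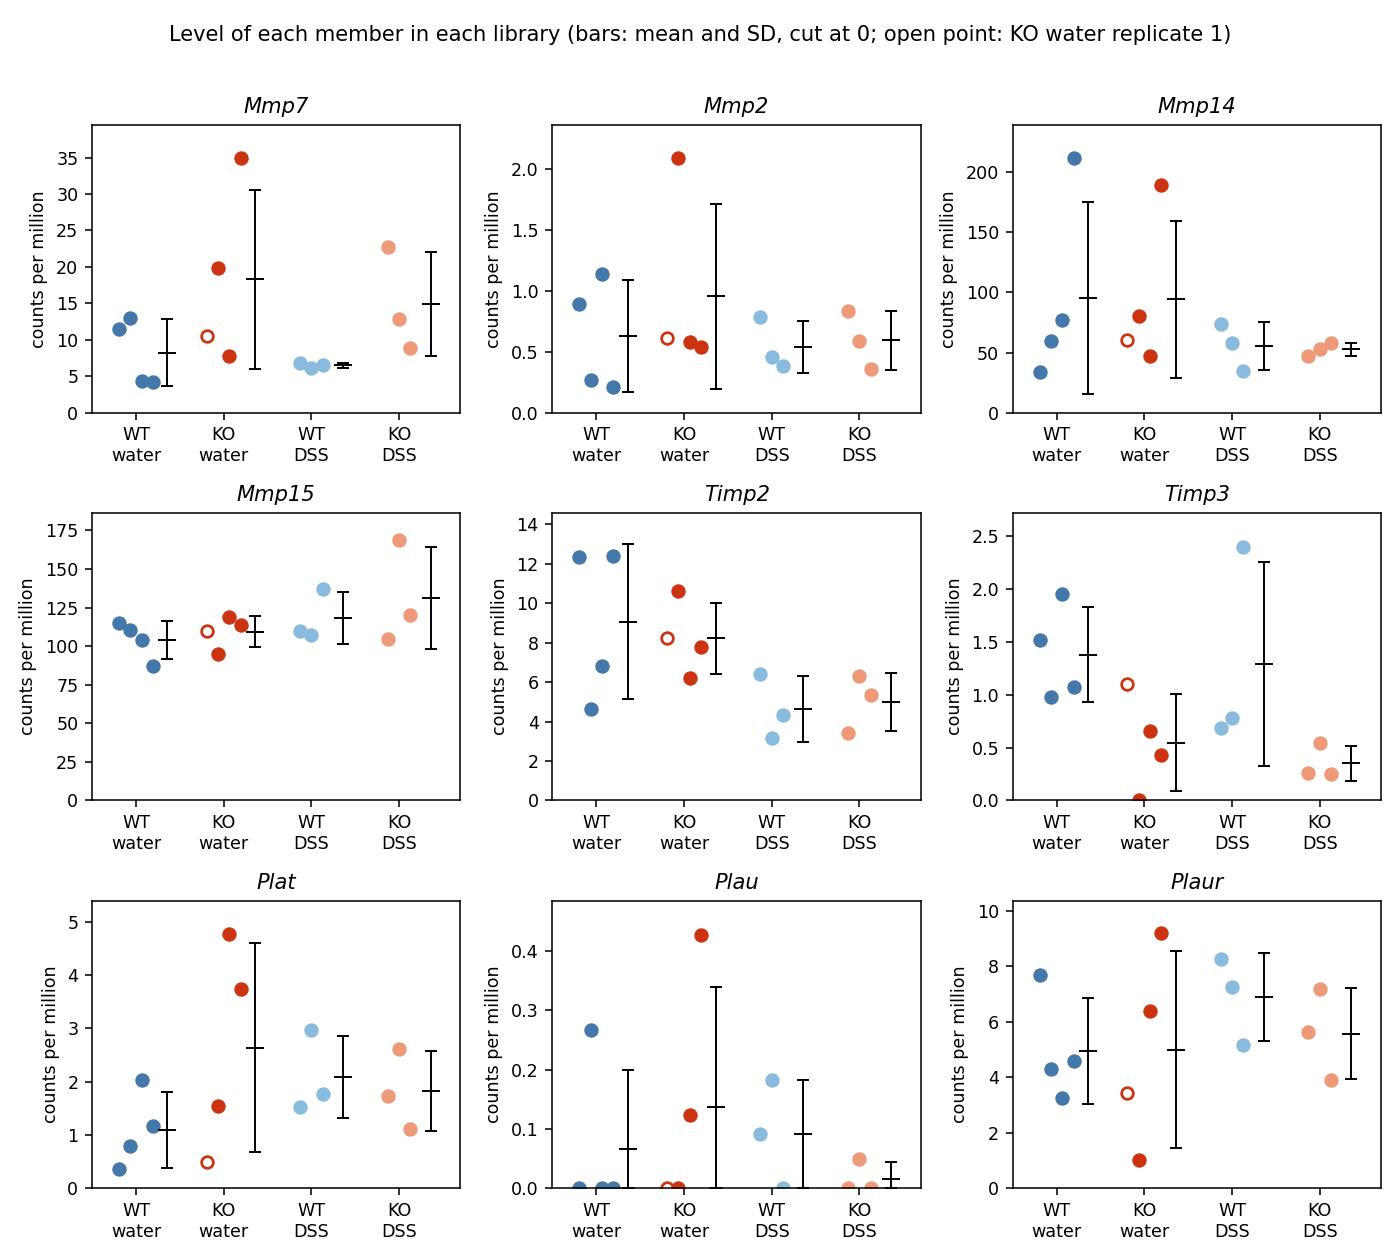
CPM of each of the 9 genes in every library, by group, with the mean and SD of each group as a bar cut at 0 and KO water replicate 1 as an open point. KO and WT do not overlap after DSS for Mmp7 (KO from 8.93 up) and Timp3 (KO up to 0.54), as for 10.4% and 11.4% of all tested genes in these directions.

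Across the members as a set, no gene was called between genotypes or by DSS in the edgeR tests with the low-count filter and no block. After DSS, 0 of the 8 tested members differed between KO and WT, where 0.747% of the 15127 tested genes (113) were called and 2330 had an unadjusted p under 0.05. Of the metalloproteinases, 1 of 4 (Mmp7) had an unadjusted p under 0.05, of the inhibitors 1 of 2 (Timp3), and of Plat and Plaur none. DESeq2 called 499 genes in this comparison, with Mmp7 as the 1 member among them. The median log2 fold change was 0.15 for the 4 metalloproteinases and -0.25 for Plat and Plaur, beside 0.00283 over all tested genes. For the 2 inhibitors it was -0.87, the middle of values of opposite sign, 0.12 for Timp2 and -1.87 for Timp3.

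On water, 0 of 8 members were called, where 0.00661% of the tested genes (1) were called and 3083 had an unadjusted p under 0.05. Mmp7 was the 1 member with an unadjusted p under 0.05 there, and DESeq2 called 768 genes (6.46% of those it gave an adjusted p) but no member. In a model with the name prefix as a block, which called 13.3% of genes, Mmp7 on water had a log2 fold change of 2.33 (adjusted p = 0.0101, edgeR). On water only the prefixes Z and MP hold both genotypes, so that this value rests on WT replicates 3 and 4. These were the WT libraries lowest in Mmp7 (4.32 and 4.28 CPM), with mitochondrial shares of 30.6% and 32.8%. By DSS, 0 of 8 members were called in WT and 0 of 8 in KO, where 0% and 0.00661% of all tested genes were called by edgeR and 3662 and 964 genes had an unadjusted p under 0.05. DESeq2 called 1777 genes (13.6%) for DSS in WT and 71 (0.47%) in KO, and no member. All KO libraries after DSS carry the name prefix D and no KO library on water does, so that prefix and DSS cannot be told apart in the KO.

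**Figure D5:**
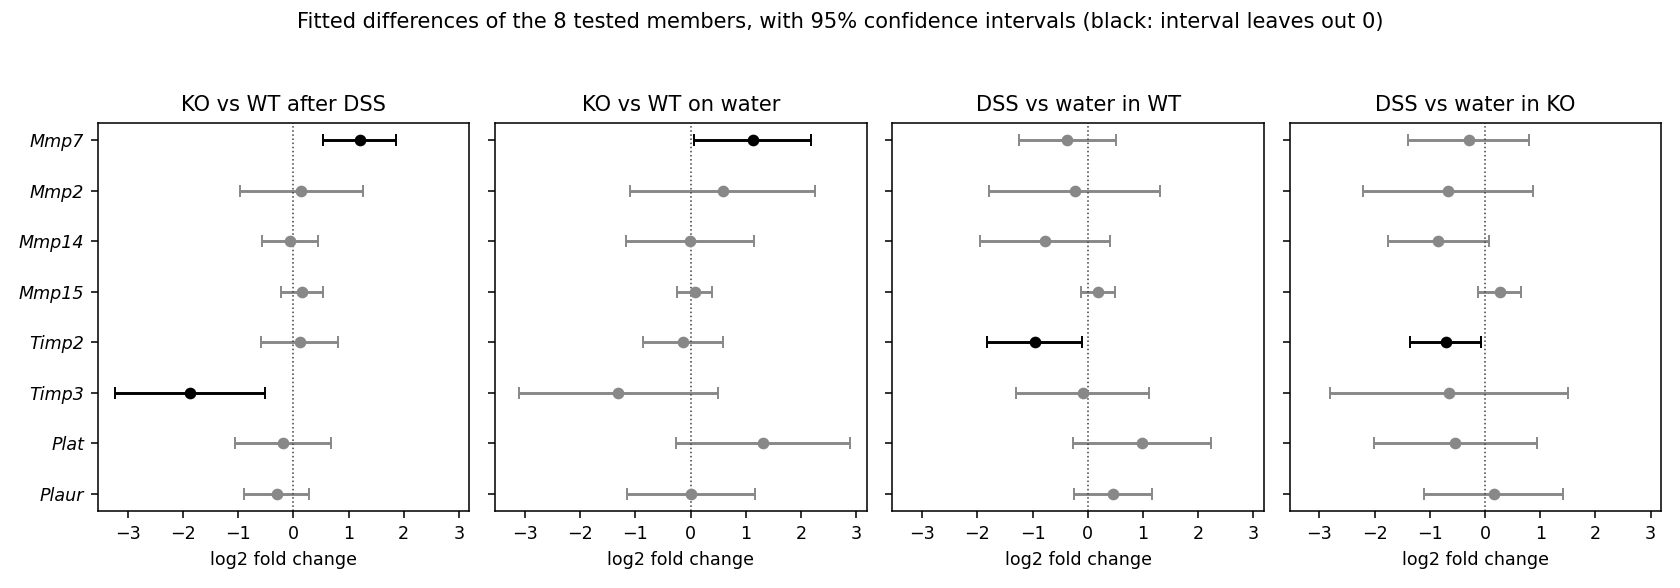
Log2 fold change of the 8 tested members with 95% confidence intervals in 4 comparisons, from edgeR. Intervals that leave out 0 (black) belong to Mmp7 between genotypes (1.20 after DSS and 1.12 on water), Timp3 between genotypes after DSS (-1.87) and Timp2 for DSS in WT (-0.96) and KO (-0.71), and none of these passed the adjusted threshold.

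The response to DSS was compared between the genotypes in 1 model of all 14 libraries. No member of the 8 was called, where 0.00661% of all tested genes were called by edgeR, 1135 had an unadjusted p under 0.05 and DESeq2 called 8 genes (0.0529%). No member had an unadjusted p under 0.05. For Mmp7 the difference of the responses was 0.08 on the log2 scale (95% confidence interval -1.38 to 1.54, edgeR adjusted p = 0.977) and for Timp3 it was -0.57 (-2.91 to 1.78, edgeR adjusted p = 0.895). Intervals of this width leave room for differences of several-fold in either direction.

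After these values were seen, the genotype difference was also averaged over water and DSS in the model of 14 libraries. In it 0 of 8 members were called by edgeR, where 2.19% of all tested genes (332) were called and 3444 had an unadjusted p under 0.05. Mmp7 had a log2 fold change of 1.16 (SE 0.35, 95% confidence interval 0.42 to 1.89, edgeR adjusted p = 0.0801). Timp3 had -1.59 (SE 0.56, 95% confidence interval -2.77 to -0.40, edgeR adjusted p = 0.114). Mmp7 was called in this contrast by DESeq2 (adjusted p = 0.0119), without the low-count filter (edgeR adjusted p = 0.0358) and with the prefix block (edgeR adjusted p = 0.0106), which called 10.5%, 2.05% and 9.18% of genes. Timp3 was called in none of its 22 alternatives, with adjusted p-values from 0.0798 to 0.285 by edgeR and DESeq2.

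Of the wider protease and inhibitor genes, Lrp1 was the 1 gene called after DSS, where 0.747% of all tested genes were called. Lrp1 is an endocytic receptor that clears complexes of plasminogen activators with their inhibitors and also takes up metalloproteinases. The WT libraries held 138, 149, 118 and 116 CPM on water and 176, 157 and 165 CPM after DSS. The KO libraries held 102, 67.4, 113 and 82.3 CPM on water and 78.9, 89.8 and 96.6 CPM after DSS. All 7 KO libraries, replicate 1 on water included, were below all 7 WT libraries, as for 0.35% of all tested genes. The log2 fold change of Lrp1 after DSS was -0.90 (SE 0.10, 95% confidence interval -1.13 to -0.67, edgeR adjusted p = 0.00642), and it was called in 14 of the 17 alternatives, the exceptions being the models of 14 libraries, of 13 libraries and with the prefix block. After DSS the goblet cell, colonocyte, epithelial and smooth muscle sums were also lower in KO and the fibroblast sum was higher, and their part in the Lrp1 level was not tested. On water the log2 fold change of Lrp1 was -0.52 (SE 0.18, edgeR adjusted p = 0.174), and averaged over both it was -0.71 (SE 0.12, edgeR adjusted p = 0.011).

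Counted by list, the calls were few and most genes of these families were too low to test. Of 19 other matrix metalloproteinases 3 were tested, of 7 other metalloproteinase inhibitors 2, and of 14 other plasminogen system genes 6, with Lrp1 as the call after DSS. Of 11 membrane serine proteases and their inhibitors 8 were tested, of 27 ADAM, ADAMTS and meprin genes 15, of 16 cathepsins and cystatins 15, and of 4 proprotein convertases 4. None of these was called in any of the 5 comparisons by edgeR, apart from Lrp1. After DSS, 1, 0, 2, 1, 5, 2 and 1 genes of these lists, in the same order, had an unadjusted p under 0.05 by edgeR. Over all genes, 2330 of the 15127 tested had one, and 0.747% were called.

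Differences of the members over the libraries were described and not tested. The measure was the root mean square (RMS) difference of log2 CPM, each gene centred on its own mean over 14 libraries. Between pairs of members it ran from 0.688 (Mmp15 and Timp2) to 1.80 (Mmp7 and Timp3). It grows with the spread of each gene, and the SD of log2 CPM ran from 0.218 for Mmp15 to 1.15 for Timp3. A small RMS thus need not mean that a pair rose and fell together. The genes nearest to Mmp7 were Sstr2 (RMS 0.405) and Rgs2 (0.479), against a median of 0.912 over all 12929 genes compared. The nearest to Mmp14 were Fap (0.371) and Hist1h2ae (0.427), to Mmp15 Cx3cl1 (0.124) and Fam129b (0.136), and to Timp2 Aqp1 (0.259) and Cbfa2t3 (0.308). Timp3 lay nearest to C920025E04Rik (0.522) and Lix1 (0.528), Mmp2 to Ccne2 (0.439) and Ube2v2 (0.446), Plat to Mfsd2a (0.568) and 3930402G23Rik (0.609), and Plaur to Ltk (0.427) and Hrh1 (0.428).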

How the data were processed

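RNA-seq of colon epithelium gave 14 libraries, grouped by their deposited labels. Per the labels and the study's methods, read pairs of 150 bp were placed on mm9 by HISAT2 and assigned to genes by featureCounts, and the deposited values are these raw counts. The strand setting and annotation release are not given in the sources used here, and RNA with an integrity number above a set minimum was used. Positions and exon lengths were taken from GENCODE release M1 of the same build, which lists 37310 of the 37680 genes. No read was left in rows without a gene, and 14001 genes had no count.

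A gene entered the tests if 3 or more libraries had 10 or more counts of it (15127 genes). The quasi-likelihood test of edgeR 4.0.16 was used, after TMM scaling, in models of only the 2 groups compared, as the study's pairwise design, or of all 14 libraries for the difference of responses. P-values were adjusted by the Benjamini-Hochberg method over all tested genes, with a threshold of 0.05. The members and lists were chosen with earlier results of these data known. The genes named by rule are the 9 members, Smad4, protease and inhibitor genes of the lists called in a comparison, and the 2 genes nearest to each tested member among those with a mean of at least 20 counts. Cell marker genes and the genes that share exon sequence with a member were named after their values were seen. Alternatives were DESeq2 1.42.0, other normalizations and filters, models of 13 or 14 libraries, the replicate number or the name prefix as a block, and fits with 1 library left out. The test was tried on simulated data first. CPM and confidence intervals were computed from the deposited counts, with exact Poisson intervals for pooled levels. Libraries were compared within groups, and none was a copy of another. They are taken as separate mice, and if they were not, the p-values measure technical spread. Promoter stretches are from RefSeq. R 4.3.3, limma 3.58.1 (under edgeR) and Python 3.11.15 were used.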

Additional observations from a re-analysis of the deposited data

Results flagged for a closer look

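In 20 groups of 4 water-treated libraries (the 9 members and Smad4 in each genotype), the highest or lowest library was compared with its nearest neighbour by Dixon's ratio of gap to range, and 3 exceeded the 95% limit, where chance gives about 1 in 20. Smad4 in KO on water had a ratio of 0.905, because the library labelled KO replicate 1 held 158 CPM against 35.1 to 46.8 CPM in the other 3. Mmp2 in KO on water had a ratio of 0.948, because replicate 2 held 2.09 CPM, from 35 counts, against 0.53 to 0.62 CPM. Plau in WT on water had a ratio of 1, because replicate 2 held 6 counts and the other 3 libraries none. With no count in the other 3 libraries, the ratio is 1 for any count in replicate 2. The Plau ratio thus cannot tell an outlier from low counts, and the chance rate of about 1 in 20 does not apply to it.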

How the results depend on the processing

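No member was called by edgeR in the 5 planned comparisons, so that no call could be lost or reversed. Mmp7 became the 1 called member after DSS with DESeq2 and without the low-count filter, and the 1 on water with the name prefix block, and no other planned comparison gained a call. Among 134 fitted values of the members after DSS, 11 changed sign, as did 18 of 142 on water, 11 of 142 for DSS in WT, 9 of 134 for DSS in KO and 20 of 182 for the difference of responses, none of them called. Mmp7 and Timp3 kept their direction between genotypes in all alternatives, with log2 fold changes of 0.76 to 1.46 and -2.33 to -1.05 after DSS and of 0.60 to 2.33 and -1.89 to -0.91 on water. Depth limits Timp3, Mmp2, Plat and Plau most, at under 60 counts in most libraries. With the longest transcript as its length, Timp3 stood at 0.191 in place of 0.111 CPM per kilobase.

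The number of all genes called moved far more. After DSS it was 113, against 345 without the filter, 499 with DESeq2, 2 in the model of 14 libraries, 8 in that of 13, 1 with the prefix block, 42 in libraries with prefix D and 27 to 96 with a library left out. On water it was 1, against 55, 768, 1276, 1151 and 2018 in the first 5 of these and 1 to 1740 with a library left out, highest without KO replicate 4 and 13 without KO replicate 1. For DSS in WT it was 0, against 457 without the filter, 1777 with DESeq2, 2 with the prefix block, 9 in libraries with prefix D and 0 to 418 with a library left out, highest without WT water replicate 2. For DSS in KO it was 1, against 19, 71, 10 and 5 without the filter, with DESeq2 and in the models of 14 and 13 libraries, and 1 to 3 with a library left out. For the difference of responses it was 1, against 2 without the filter, 8 with DESeq2 and 1 to 5 with a library left out. The cause of these moves was not tested.

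Libraries with the same replicate number did not deviate together more than others. Their correlations were -0.08 to 0.35 (median -0.0234, 2 of 19 above 0.1), against a median of 0.00185 and 9 of 54 above 0.1 for other numbers. The highest, 0.35, joined WT and KO water replicate 4, which share the name prefix MP. No pairing by number was seen, but correlations over all genes cannot exclude one. With the replicate number as a block, 57 genes were called after DSS, 473 on water, 54 for DSS in WT, 15 for DSS in KO and 1 for the difference of responses, and no member in any of them. Smad4 after DSS lost its call in the model of 14 libraries (log2 fold change -2.05, edgeR) and with the prefix block (-2.06), and on water it gained one without KO replicate 1 (-1.75).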
